A study of Homo sapiens with 12 samples.

Results

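Potassium channel genes (KCN symbols) and transient receptor potential (TRP) channel genes of the canonical, melastatin and vanilloid branches (TRPC, TRPM and TRPV) were compared between fast and parental MDA-MB-231 cells by RNA sequencing. MDA-MB-231 is an established human breast cancer line classed as triple negative, meaning that it lacks the estrogen and progesterone receptors and HER2 amplification. The fast cells were captured from this line on the basis of their migration trajectory, and the parental cells are the line itself; neither label names any drug, allele or transgene. Each population was sequenced in 2 batches of 3 libraries, giving 12 libraries. The series text mentions both technical and biological replicates; it is read here as 3 technical libraries per population and batch, and whether the batches were separate cultures or captures is not given. An n of 6 therefore counts libraries, and each p-value reflects library-to-library spread, which may be technical. Members were taken by gene symbol: of 60234 genes in the count table, 136 matched the prefixes, 20 of these were left out as antisense, intronic or pseudogene entries, and 116 remained (95 KCN and 21 TRP genes). No row began with TRPML; the mucolipin channels are listed as MCOLN genes and are given with the partner genes. TRPC4AP also matched, although its product is an adaptor protein and not a channel.

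Potassium channels let potassium leave or enter the cell along its gradient and so set the membrane voltage, which in turn sets the driving force for calcium entry and helps control cell volume. Voltage-gated members open on depolarisation, calcium-activated members open when calcium rises inside the cell, inward rectifiers and tandem-pore (K2P) channels carry resting currents, and auxiliary subunits change the gating or delivery of the pore-forming ones. TRP channels are cation channels, many of them permeable to calcium, that respond to receptor signalling, temperature, chemicals or stretch. In migrating cells, calcium-activated potassium channels and calcium-permeable TRP channels are known for local volume changes and for turnover of adhesions.

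Large changes were found in both directions within this family. In the fast cells KCNAB2, KCNT2, KCNH1, KCNE1 and KCNN4 were 2.00-fold to 3.97-fold higher, while KCNJ15, KCNN2 and KCNK2 were 6.96-fold to 27.9-fold lower. KCNQ3, at a level of 5.14 in the parental cells (CPM, counts scaled to a common library total), had 2 counts over all 6 fast libraries. Of these genes, only KCNAB2 and KCNN4 reached 1 CPM, the limit for naming a gene, in both populations. The others reached it only where they were high, so their direction was built into the choice. The level of a gene is given as CPM after TMM scaling (mean ± SD over the 6 libraries of a population), the difference as the log2 fold change of fast over parental with its standard error (SE), and a gene is called when its Benjamini-Hochberg adjusted p over all genes tested is under 0.05. Total counts ran from 53267145 to 75944907 per library, so that 1 CPM stands for at least 51.9 counts. In RNA from whole cultures, fewer cells using a gene and less of its RNA per cell cannot be told apart.

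The proximal promoters of 3 genes with large differences are shown for their base composition: KCNN4, the potassium channel gene highest per length, and KCNJ15 and KCNN2, which were far lower in the fast cells. Each is the 250 bases before the only listed start, 5′ to 3′ on the gene's strand, from RefSeq on GRCh38.p14, at chr19:43780974-43781223 (minus strand), chr21:38272258-38272507 (plus strand) and chr5:114361820-114362069 (plus strand). Capitals mark each CG pair and each match to TGANTCA, the AP-1 motif, searched on both strands.

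KCNN4: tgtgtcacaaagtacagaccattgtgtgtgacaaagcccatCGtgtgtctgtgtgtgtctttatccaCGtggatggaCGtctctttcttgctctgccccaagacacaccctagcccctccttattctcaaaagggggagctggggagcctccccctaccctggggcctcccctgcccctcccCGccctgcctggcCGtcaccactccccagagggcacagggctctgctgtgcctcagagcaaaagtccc

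KCNJ15: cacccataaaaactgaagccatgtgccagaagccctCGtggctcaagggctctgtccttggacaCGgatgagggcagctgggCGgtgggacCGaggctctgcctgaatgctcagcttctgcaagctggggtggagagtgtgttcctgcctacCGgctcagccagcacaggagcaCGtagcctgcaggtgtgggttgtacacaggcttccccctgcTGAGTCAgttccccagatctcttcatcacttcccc

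KCNN2: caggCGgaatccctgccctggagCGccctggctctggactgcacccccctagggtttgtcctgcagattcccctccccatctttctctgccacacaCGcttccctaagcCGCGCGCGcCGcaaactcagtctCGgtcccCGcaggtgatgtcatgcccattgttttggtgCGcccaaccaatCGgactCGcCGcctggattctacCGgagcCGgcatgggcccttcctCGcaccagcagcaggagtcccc

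The KCNN4 window held 5 CG pairs and no TGANTCA, the KCNJ15 window 6 CG pairs and 1 TGANTCA, and the KCNN2 window 17 CG pairs and no TGANTCA. Over 35116 RefSeq windows of the same length the median was 11 CG pairs, and 6.57% held TGANTCA. The table held a window for 26 of the 32 genes named below, 16 of them with a single start. A match or its absence describes these letters only.

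Of the 116 genes, 17 had no count in any library, 44 had counts but too few to be tested (at most 77 in all 12 libraries, KCNF1), and 55 were tested. Of the 55, 21 were called higher in the fast cells, 22 lower, and 12 were not called. Among all 22668 genes tested, 63.4% were called, 31.9% higher and 31.5% lower, so the number of channel genes called in each direction is near that background. By size, 10 channel genes were called at least 2-fold higher and 13 at least 2-fold lower, against 3.98% and 6.92% of all genes. The median absolute log2 fold change was 0.83 over the 55 channel genes and 0.32 over all genes. Genes of low level can pass the count filter through 1 population only and then differ by construction, so nothing is read from these shares. The 6 fast libraries all lay above the 6 parental libraries for 9 channel genes (18.8% of all genes) and all below for 14 (19.6%).

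**Figure D1:**
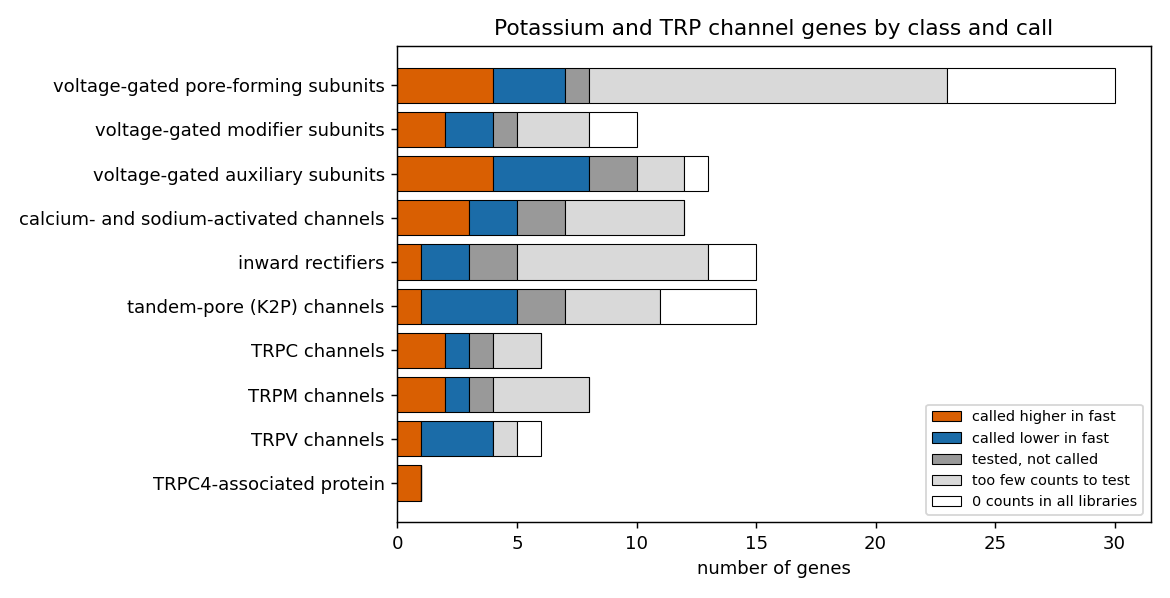
The number of channel genes (x axis) in each class (y axis), stacked by call. The 30 voltage-gated pore-forming genes include 7 with no count and 15 with too few counts to test, while 10 of 13 auxiliary subunit genes were tested.

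A mean of 1 CPM or more in a population was reached by 32 genes, which are named here: 21 in both populations, 5 in the fast cells only and 6 in the parental cells only. For a gene that reached it in only 1 population, the direction was built into the choice. Of these 32, 12 were called higher, 16 lower and 4 were not called. Among all 16582 genes at this level 75.3% were called, 39.5% higher and 35.8% lower. Nearest to the limit inside were KCNIP4 (1.06 CPM in the fast cells) and KCNK12 (1.33 CPM in the parental cells); nearest outside were KCNE1L (0.802 CPM) and TRPM2 (0.701 CPM), both in the parental cells. Channel genes below this limit that are mentioned by name were singled out after their values were seen. CPM summed over all 116 genes was 434 in the fast and 377 in the parental cells, of which TRPC4AP gave 140 and 125.

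**Figure D2:**
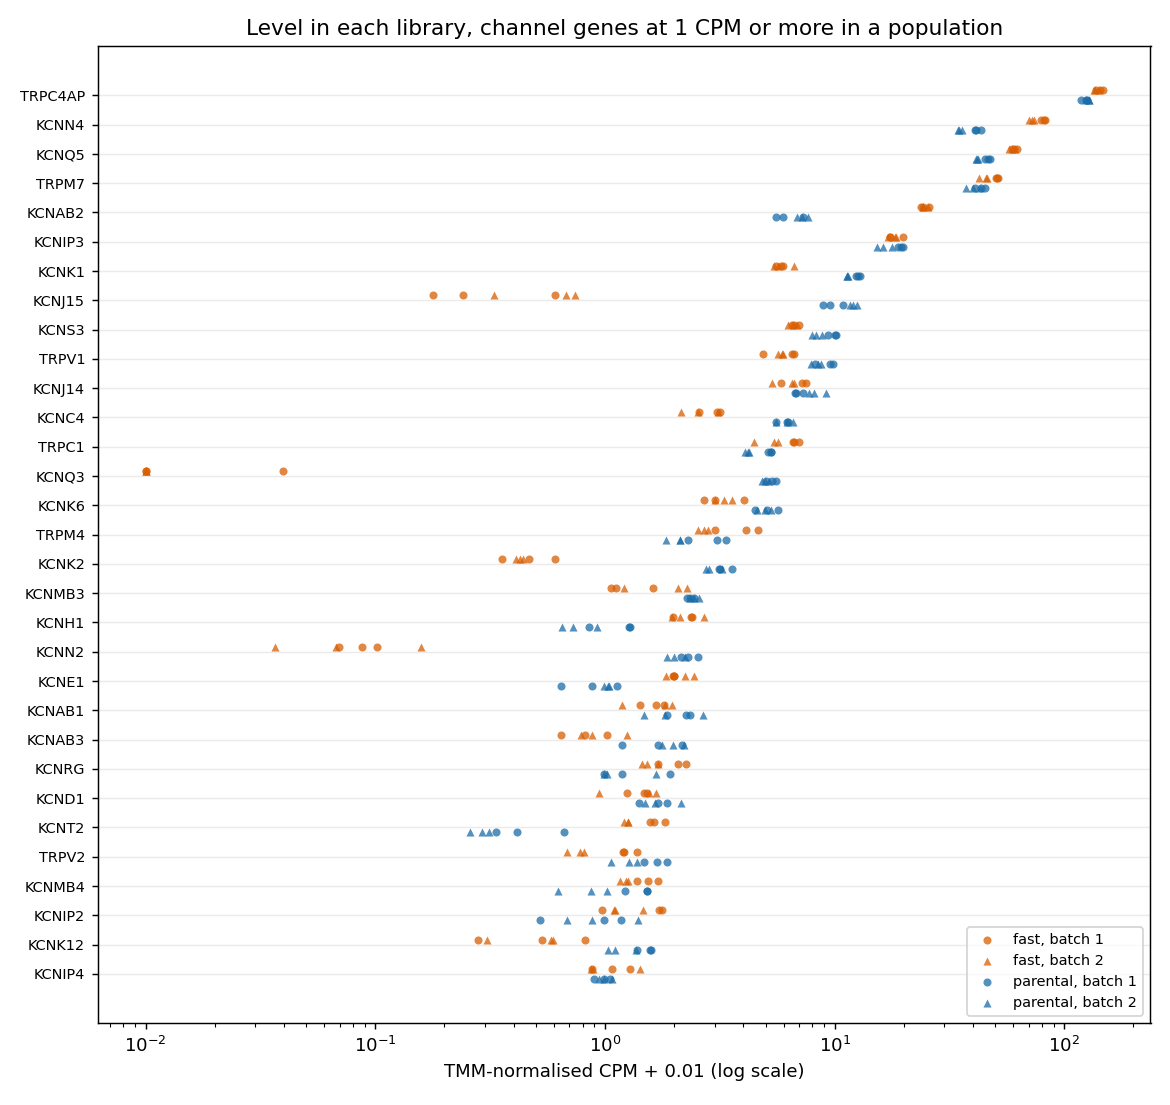
TMM-normalised CPM plus 0.01 (x axis, log scale) of 31 of the 32 genes in each of the 12 libraries, fast in orange and parental in blue, circles for batch 1 and triangles for batch 2. KCNQ3, KCNJ15, KCNN2 and KCNK2 show fast libraries far below the parental ones, whereas the points of KCNIP3 and KCNIP4 are mixed.

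Among voltage-gated pore-forming subunits, KCNQ5 and KCNQ3 belong to the KCNQ family, whose channels carry slow, non-inactivating currents that oppose excitation. KCNQ5 (ENSG00000185760, chromosome 6) had the highest level per length among them, with lowest, median and highest values of 57.6, 59.7 and 62.0 CPM in the fast and 41.2, 43.5 and 47.5 CPM in the parental libraries. All fast libraries lay above all parental ones, and KCNQ5 rose by 0.45 ± 0.033 on the log2 scale (adjusted p = 4.52e-14). KCNQ3 (ENSG00000184156, chromosome 8) went the other way. Its 2 fast counts both came from replicate 2 of batch 1, and the other 5 fast libraries had 0. The parental libraries ranged from 4.82 to 5.52 CPM (median 5.08; 1999 counts in all). The ratio of parental to fast was 1019, with an exact 95% interval of 281.6 to 8416 for counting error only, taking counts as independent. Counts of KCNN3 and KCNK3 were even numbers in all 12 libraries, so counts may come in pairs and the interval may be too narrow. Whether they do was not tested.

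KCNH1 and KCNC4 also changed in opposite directions. KCNH1 encodes the ether-à-go-go channel EAG, a voltage-gated channel found in many tumours. Its lowest, median and highest values were 1.94, 2.23 and 2.67 CPM in the fast libraries and 0.641, 0.877 and 1.27 CPM in the parental ones, without overlap, and it rose by 1.26 ± 0.151 on the log2 scale (adjusted p = 4.96e-09). KCNC4, a channel of the Shaw family with fast opening and closing, ranged from 2.14 to 3.14 CPM (median 2.80) in the fast and from 5.54 to 6.58 CPM (median 6.18) in the parental libraries. The groups were again apart, and KCNC4 fell by 1.14 ± 0.093 on the log2 scale (adjusted p = 5.38e-13). KCND1, an A-type channel gene on chromosome X, had 1.39 ± 0.266 CPM in the fast and 1.70 ± 0.265 CPM in the parental cells (SD, n = 6) and was not called (log2 fold change -0.29 ± 0.147, adjusted p = 0.0851), but was called with library totals as the scaling (adjusted p = 0.0442) and without replicate 1 of fast batch 2 (adjusted p = 0.0428).

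Below 1 CPM, KCNH3 (0.591 and 0.294 CPM, adjusted p = 0.00149) and KCNA7 (0.247 and 0.135 CPM, adjusted p = 0.0459) were called higher, both with overlapping libraries. These calls were not followed through the other settings. Most of the class was not measurable: KCNA1, KCNA3, KCNA4, KCNA5, KCNA6, KCNB2 and KCND2 had no count, and the cardiac channel genes KCNH2 (8 counts) and KCNQ1 (14 counts) were near 0.

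Modifier subunits form no channel alone and assemble with other voltage-gated subunits. KCNS3 was the only one of 10 at 1 CPM or more; it had 6.63 ± 0.263 CPM in the fast and 9.11 ± 0.916 CPM in the parental cells, without overlap, and fell by 0.45 ± 0.065 on the log2 scale (adjusted p = 2.09e-07). Of the other modifier genes, KCNG3 (adjusted p = 0.0465) and KCNS1 (adjusted p = 0.0162) were called higher and KCNV2 (adjusted p = 0.0232) lower. All of these had overlapping libraries, and KCNG2 was not called.

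Auxiliary subunits of voltage-gated channels included 8 of the 32 genes. KCNAB2 (ENSG00000069424, chromosome 1) encodes a cytoplasmic beta subunit of Shaker-type channels with the fold of an aldo-keto reductase. It ranged from 23.7 to 25.7 CPM (median 24.3) in the fast libraries and from 5.55 to 7.62 CPM (median 7.02) in the parental ones. The groups were far apart, and KCNAB2 was 3.66-fold higher in the fast cells (log2 fold change 1.87 ± 0.059, adjusted p = 3.13e-24). The other beta subunits did not follow it: KCNAB3 fell by 1.03 ± 0.162 (0.889 ± 0.209 against 1.82 ± 0.377 CPM, adjusted p = 9.65e-07), and KCNAB1 fell by 0.34 ± 0.143 (1.64 ± 0.288 against 2.06 ± 0.425 CPM, adjusted p = 0.0407), both with overlapping libraries. KCNAB3 reached 1 CPM only in the parental cells, so its direction was built into the choice. The call of KCNAB1 was lost when replicate 2 or 3 of batch 1 or replicate 2 of batch 2 was left out of either population (adjusted p from 0.0665 to 0.213), and with limma-voom (adjusted p = 0.0604) or without a batch term (adjusted p = 0.0864). The Shaker-type KCNA genes that these subunits join were near 0: KCNA2 and KCNA10 had 2 counts each and KCNA7 had 0.247 CPM in the fast cells.

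KCNE genes encode small membrane proteins that slow or shift the gating of KCNQ and KCNH channels. KCNE1 ranged from 1.83 to 2.42 CPM (median 1.99) in the fast and from 0.632 to 1.12 CPM (median 1.001) in the parental libraries, without overlap, and rose by 1.13 ± 0.14 on the log2 scale (adjusted p = 9.47e-09). KCNE3 had 0 counts in the fast libraries and 81 in the parental ones. It was at least 27.5-fold lower in the fast cells, taking 3 independent counts over the 6 fast libraries as the floor. If counts come in pairs, this bound is too high. KCNE1L on chromosome X, at 0.374 and 0.802 CPM, fell by 1.11 ± 0.223, and the median of its 20 neighbouring genes was -0.75. ACSL4 on the same strand covers 5.3% of the exonic bases of KCNE1L and fell by 0.63 ± 0.027, at a far higher level (143 and 222 CPM). Which of these 2 genes the reads came from was not tested.

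KCNIP genes encode calcium-binding proteins that assemble with A-type KCND channels, and KCNIP3 also acts as a calcium-sensitive transcription repressor. KCNIP3 stood at 18.1 ± 0.992 CPM in the fast and 17.9 ± 1.83 CPM in the parental cells (SD, n = 6) and was not called (log2 fold change 0.02 ± 0.052, adjusted p = 0.782). KCNIP4 was also not called (1.06 and 0.980 CPM, adjusted p = 0.588). KCNIP2 rose by 0.52 ± 0.201 (1.34 ± 0.345 against 0.930 ± 0.3197 CPM, adjusted p = 0.0262), with overlapping libraries; its call was lost without a batch term (adjusted p = 0.0628) and without any 1 of 5 libraries (replicates 1 and 2 of fast batch 1 and replicate 1 of fast batch 2 and of each parental batch; adjusted p from 0.0566 to 0.0717). An antisense gene, KCNIP2-AS1, covers 12.2% of its exonic bases and rose by 1.35 ± 0.306, and without known strand their reads cannot be told apart. KCNRG, whose protein interferes with the assembly of voltage-gated channels, rose by 0.46 ± 0.158 (1.78 ± 0.314 against 1.29 ± 0.399 CPM, adjusted p = 0.0109), but shares 66.8% of its exonic bases with TRIM13, which rose by 0.28 ± 0.051.

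**Figure D3:**
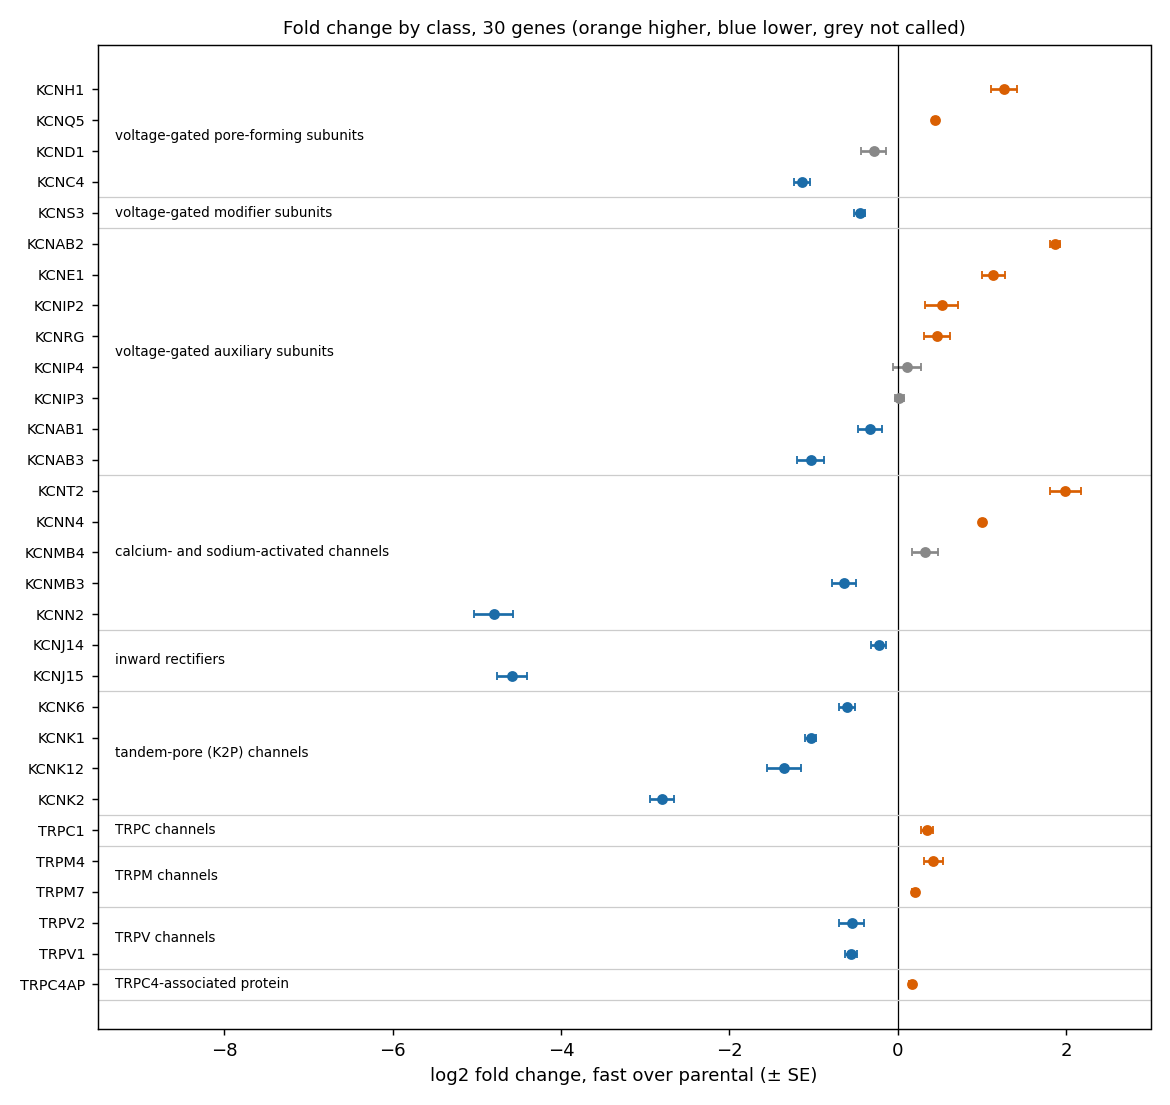
Log2 fold change of fast over parental (x axis, bars are SE) for 30 of the 32 named genes, grouped by class; KCNQ3 is not drawn because it rests on 2 fast counts. Points lie on both sides of 0 within the voltage-gated, auxiliary and calcium- or sodium-activated classes, and below 0 for the 4 K2P, 2 inward rectifier and 2 TRPV genes.

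The calcium-activated channels held the potassium channel gene with the highest level per length and a gene close to 0 in the fast cells. KCNN4 (ENSG00000104783, chromosome 19) encodes the intermediate-conductance channel that opens through bound calmodulin when calcium rises, and is well known from lymphocytes, red cells and tumour cells. In batch 1 its 3 fast libraries had 82.0, 81.2 and 78.8 CPM and its 3 parental libraries 41.1, 43.1 and 40.7 CPM; in batch 2 the values were 72.6, 70.4 and 74.1 CPM against 34.8, 35.8 and 34.3 CPM. Every fast library lay above every parental one in both batches, and KCNN4 was 2.00-fold higher in the fast cells (log2 fold change 1.002 ± 0.032, adjusted p = 4.66e-24). Its 20 neighbouring genes had a median log2 fold change of 0.33, which leaves a difference of 0.67 between KCNN4 and that median.

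KCNN2 (ENSG00000080709, chromosome 5), the small-conductance relative of KCNN4, was close to 0 in the fast cells. It ranged from 0.0266 to 0.149 CPM (median 0.0684; 30 counts in all) in the fast libraries and from 1.85 to 2.54 CPM (median 2.18; 844 counts) in the parental ones. The groups did not overlap, and KCNN2 was 27.9-fold lower in the fast cells (log2 fold change -4.80 ± 0.228, adjusted p = 3.21e-19). KCNN3, a further small-conductance gene, was not called at 0.124 and 0.116 CPM, and KCNN1 had 67 counts.

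KCNT2, a channel opened by intracellular sodium, was 3.97-fold higher in the fast cells. Its libraries ranged from 1.20 to 1.82 CPM (median 1.41) in the fast and from 0.249 to 0.651 CPM (median 0.315) in the parental cells, without overlap (log2 fold change 1.99 ± 0.184, adjusted p = 1.42e-11). KCNMA1, the pore of the large-conductance (BK) channel, was low at 0.308 and 0.136 CPM and was called higher (log2 fold change 1.18 ± 0.36, adjusted p = 0.00474). Of the genes for its beta subunits, KCNMB3 fell by 0.64 ± 0.143 (1.55 ± 0.521 against 2.40 ± 0.101 CPM, adjusted p = 0.000207), with 1 fast library inside the parental range. PIK3CA on the opposite strand covers 37.9% of the exonic bases of KCNMB3 and fell by 0.22 ± 0.039. The pseudogene LRRFIP1P1 on the same strand covers 9.62% and fell by 0.57 ± 0.122, at a level near that of KCNMB3 (1.66 and 2.44 CPM). Which of these genes the reads came from was not tested. KCNMB4 was not called (1.37 ± 0.209 and 1.12 ± 0.362 CPM, log2 fold change 0.32 ± 0.152, adjusted p = 0.0653); it was called without replicate 2 of fast batch 1 or without replicate 1 or 3 of parental batch 1 (adjusted p from 0.0365 to 0.044).

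Inward rectifiers carry potassium more easily into the cell than out and hold the resting voltage. KCNJ15 (ENSG00000157551, chromosome 21) ranged from 0.168 to 0.732 CPM (median 0.458; 183 counts) in the fast libraries and from 8.86 to 12.5 CPM (median 11.2; 4260 counts) in the parental ones. Every fast library lay below every parental one, and KCNJ15 was 23.9-fold lower in the fast cells (log2 fold change -4.58 ± 0.179, adjusted p = 5.76e-13). KCNJ14 had 6.49 ± 0.803 CPM in the fast and 7.61 ± 0.931 CPM in the parental cells and fell by 0.23 ± 0.084 (adjusted p = 0.0179). The log2 fold change of KCNJ14 was -0.01 in batch 1 and -0.44 in batch 2, and the difference between batches was not called (adjusted p = 0.0746). The call of KCNJ14 was lost on summed libraries (adjusted p = 0.0944), without a batch term (adjusted p = 0.0517) and without replicate 3 of fast batch 1, replicate 2 of fast batch 2 or replicate 3 of parental batch 2 (adjusted p from 0.0523 to 0.0832). Parts of its exons are shared with 3 other genes that rose. KCNJ12 was called higher at 0.638 and 0.341 CPM, and KCNJ8 (0.340 and 0.459 CPM) and KCNJ13 (0.139 and 0.141 CPM) were not called. KCNJ2, a widely used inward rectifier gene, had no count in any library.

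K2P channels are leak channels, open at rest and tuned by acid, lipids, stretch or anaesthetics. The 4 genes at 1 CPM or more were called lower without overlap (35.8% of all genes at this level were called lower, and 19.6% of all genes tested lay fully below), but KCNK2 and KCNK12 reached the limit only through the parental cells, so their direction was built into the choice. KCNK2 (ENSG00000082482, chromosome 1), a stretch- and lipid-sensitive channel, ranged from 0.347 to 0.596 CPM (median 0.424) in the fast and from 2.73 to 3.55 CPM (median 3.15) in the parental libraries and was 6.96-fold lower (log2 fold change -2.80 ± 0.14, adjusted p = 1.20e-18). KCNK1, a weak inward rectifying leak channel and the highest of the class per length, had 5.84 ± 0.425 CPM in the fast and 12.0 ± 0.727 CPM in the parental cells and fell by 1.04 ± 0.064 (adjusted p = 3.43e-16). KCNK12 fell by 1.35 ± 0.201 (0.509 ± 0.200 against 1.33 ± 0.234 CPM), and KCNK6 fell by 0.61 ± 0.095 (3.27 ± 0.482 against 5.002 ± 0.436 CPM). Summed CPM over the class was 10.6 in the fast and 21.9 in the parental cells. The class was not uniform below 1 CPM: KCNK15, an acid-sensitive-type member, was called higher (62 counts in the fast and 14 in the parental libraries, log2 fold change 2.06 ± 0.551, adjusted p = 0.00144), and KCNK3 and KCNK7 were not called.

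TRPC channels admit calcium and sodium downstream of phospholipase C. TRPC1, which assembles with other TRPC subunits, had 5.97 ± 0.954 CPM in the fast and 4.69 ± 0.587 CPM in the parental cells and rose by 0.35 ± 0.076 (adjusted p = 0.000155); within each batch the fast libraries lay above the parental ones, whereas the pooled ranges overlapped. TRPC4 rose at a low level by 1.53 ± 0.317 (0.426 and 0.147 CPM, adjusted p = 7.49e-05), without overlap, and TRPC6 was not called (0.302 and 0.252 CPM). TRPC4AP, the adaptor, rose by 0.16 ± 0.028 (140 ± 4.78 against 125 ± 3.83 CPM), which differs by -0.025 from the median of its neighbours.

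TRPM7, which joins a magnesium- and calcium-permeable channel to a kinase that acts on myosin, had the highest level per length of the TRP channels. In batch 1 its fast libraries had 50.4, 51.0 and 51.5 CPM and its parental ones 45.2, 40.7 and 43.5 CPM; in batch 2 the values were 45.9, 45.6 and 42.4 CPM against 37.3, 39.9 and 42.7 CPM. The groups were apart in batch 1 and touched in batch 2, where the lowest fast value lay just under the highest parental one. TRPM7 rose by 0.20 ± 0.037 on the log2 scale (adjusted p = 1.68e-05), a change of the size of the median of its 20 neighbours (0.23). TRPM4, a calcium-activated channel that passes sodium and potassium but not calcium, rose by 0.42 ± 0.112 (3.29 ± 0.864 against 2.46 ± 0.607 CPM, adjusted p = 0.00145), with overlapping libraries and with the call lost without a batch term (adjusted p = 0.0597). TRPM2, opened by oxidative stress through ADP-ribose, fell at a low level by 2.07 ± 0.314 (0.157 and 0.701 CPM, adjusted p = 5.89e-07), with overlapping libraries. TRPM6, the closest relative of TRPM7, was not called (0.216 and 0.360 CPM), and the cold receptor gene TRPM8 had 57 counts.

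TRPV channels include the heat and capsaicin receptor TRPV1. TRPV1 ranged from 4.88 to 6.62 CPM (median 5.95) in the fast and from 7.88 to 9.84 CPM (median 8.56) in the parental libraries, without overlap, and fell by 0.56 ± 0.074 (adjusted p = 4.29e-08). A neighbouring gene, AC027796.3, shares 27.5% of its exonic bases and was not called (log2 fold change -0.04). TRPV2 fell by 0.55 ± 0.146 (1.001 ± 0.287 against 1.45 ± 0.291 CPM, adjusted p = 0.00137), with overlapping libraries. Of the rarer genes, TRPV3 fell with 11 counts against 103 (log2 fold change -3.15 ± 0.506, adjusted p = 1.54e-06). TRPV4, an osmotic and stretch-sensitive calcium channel, rose with 56 counts against 9 (adjusted p = 0.000387). Its ratio of parental to fast was 0.164, with an exact 95% interval of 0.0712 to 0.334 if counts are independent. TRPV5 had no count and TRPV6 had 2.

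Levels between genes were set side by side as CPM per kilobase of merged exons. KCNN4 stood highest among the channels in both populations, at 22.4 in the fast and 11.2 in the parental cells. KCNQ5 followed at 7.90 and 5.80, then TRPM7 at 3.86 and 3.35. The next places differed between populations: KCNAB2 (2.58), KCNIP3 (2.298) and KCNS3 (2.12) in the fast cells, and KCNK1 (3.31), KCNS3 (2.91) and KCNIP3 (2.28) in the parental cells. In the parental cells KCNK1 and TRPM7 were close, at 3.31 and 3.35. These values assume reads over all annotated exons of each gene.

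The 2 batches gave the same direction for most channel genes. Of the 55 tested genes, 50 had the same sign in both batches, and the share over all genes was not computed for this count. No channel gene was called for a difference of the fast-parental effect between batches by edgeR or DESeq2, against 5.40% of all genes by edgeR. At an unadjusted p under 0.05, 8 genes were found by edgeR (17.5% of all genes) and 9 by DESeq2, for which the share over all genes was not computed. On simulated counts (22153 genes run), differences were put only into genes with a mean of 1 CPM or more. There this test recovered 76% of differences of 1.5-fold and 86% of 2-fold ones, so small differences could be missed. Recovery below 1 CPM was not measured, and larger differences could be missed there. KCNN4 had log2 fold changes of 0.95 and 1.05 in batches 1 and 2, KCNAB2 1.97 and 1.77, KCNJ15 -4.83 and -4.40, and KCNK2 -2.79 and -2.81. KCNH1 ran from 0.98 to 1.56 without being called. At a low level, KCNG2 had 0.98 and -2.10 and KCNJ12 had 1.75 and 0.255, also without being called.

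**Figure D4:**
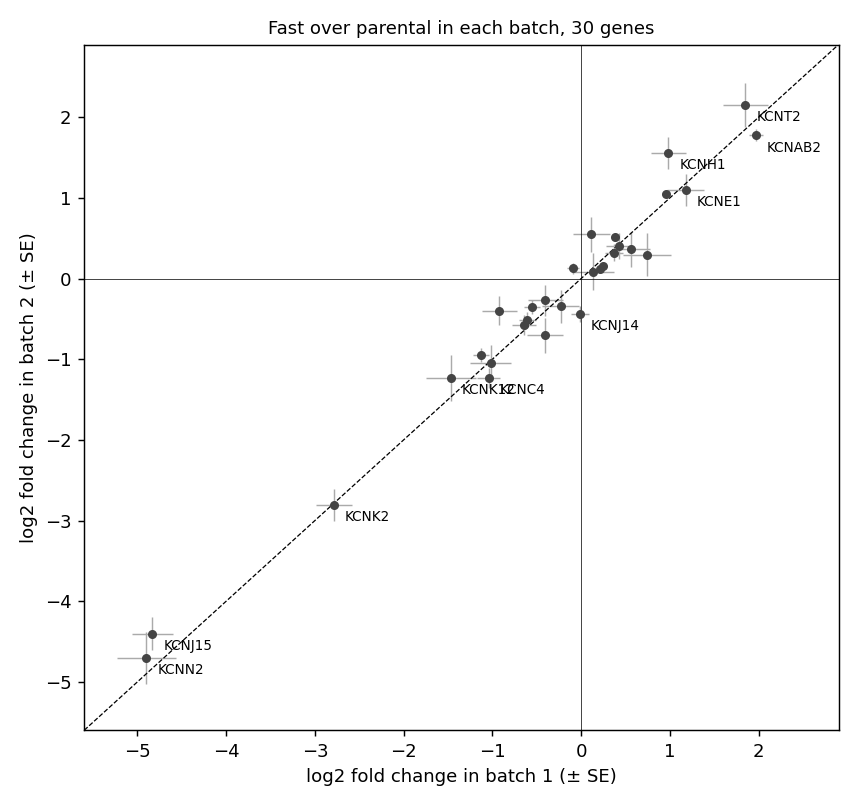
Log2 fold change in batch 1 (x axis) against batch 2 (y axis) for 30 of the 32 named genes, bars are SE and the dashed line marks equal values. The points follow the line from KCNN2 and KCNJ15 at the lower left to KCNT2 and KCNAB2 at the upper right, and KCNJ14 lies at -0.01 in batch 1 and -0.44 in batch 2.

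Each named gene was also set beside the 10 tested genes on either side along its chromosome with a mean of at least 1 CPM over all 12 libraries. The median log2 fold change of these 20 neighbours lay between -0.55 (KCND1) and 0.35 (KCNIP2). For KCND1 the difference from the neighbours was 0.26, and for KCNIP2 it was 0.17. For KCNAB2 it was 1.83, for KCNT2 1.75, for KCNK2 -2.95, for KCNJ15 -4.59 and for KCNN2 -4.62. These genes were picked for their large changes. All but KCNAB2 reached 1 CPM in only 1 population, so a distance from the neighbours was partly built into the choice.

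**Figure D5:**
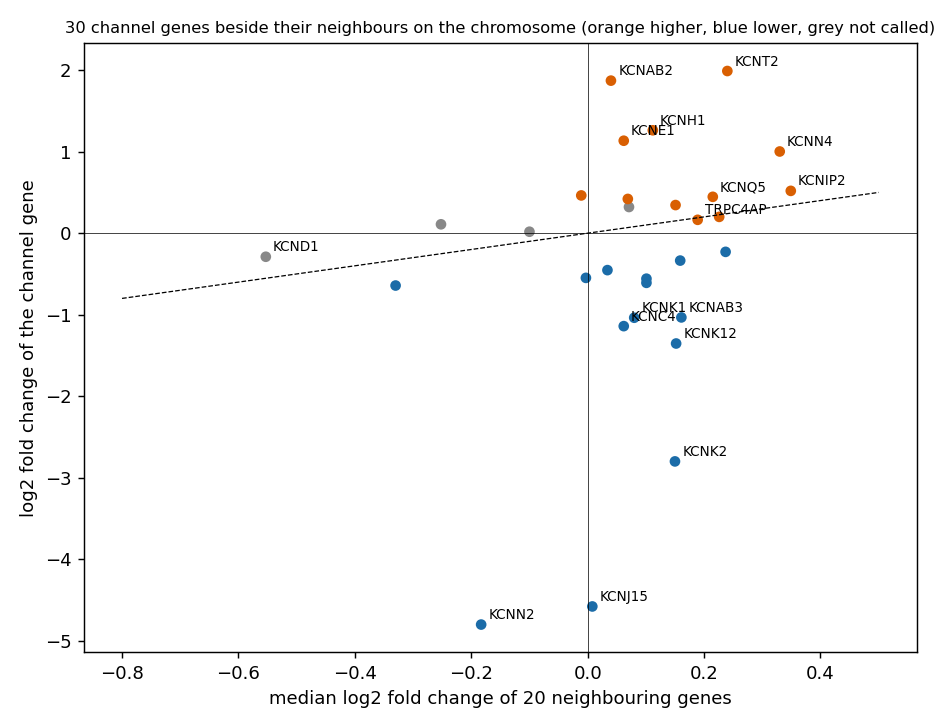
Log2 fold change of 30 of the 32 named genes (y axis) against the median of their 20 neighbouring genes (x axis), with the dashed line at equal values. TRPC4AP lies on the line, and KCNAB2, KCNT2, KCNK2, KCNJ15 and KCNN2 lie far from it.

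Proteins that work with these channels were listed apart, in 3 lists. Up to 4 called genes of each list are named by the size of their change, and STIM1, STIM2, ORAI1, ORAI2 and the MCOLN genes were singled out after their values were seen. Of 15 genes for potassium channel partners and organelle potassium channels, 9 were tested, 4 were called higher, 3 lower and 2 neither (31.9% and 31.5% of all genes tested were called higher and lower), with a median log2 fold change of -0.015 against 0.005 for all genes. TMEM38B, a potassium-permeable channel of the endoplasmic reticulum, rose by 0.54 ± 0.037, whereas its relative TMEM38A fell by 0.44 ± 0.074. LRRC26, which makes BK channels open at lower voltage, rose by 0.49 ± 0.103, and AMIGO1, a cell-surface partner of voltage-gated channels, fell by 0.48 ± 0.058.

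Of 25 genes for calcium entry, calcium stores and other cation channels, 21 were tested, 11 were called higher, 5 lower and 5 neither (median log2 fold change 0.07; 31.9% and 31.5% of all genes were called higher and lower). Store-operated entry pairs a sensor in the endoplasmic reticulum (STIM) with a pore in the plasma membrane (ORAI). ORAI3 had 7.58 ± 0.434 CPM in the fast and 3.22 ± 0.725 CPM in the parental cells and rose by 1.252 ± 0.098 (adjusted p = 5.55e-13), while ORAI2 rose by 0.55 and ORAI1 by 0.21. The sensor genes moved the other way: STIM1 fell by 0.61 and STIM2 by 0.54. PIEZO2, a stretch-gated channel, rose by 1.70 ± 0.2 (1.29 ± 0.358 against 0.396 ± 0.159 CPM). PIEZO2 reached 1 CPM only in the fast cells, so its direction was built into the choice. Of the genes for calcium release channels, ITPR3 rose by 0.85 ± 0.025 (332 ± 45.5 against 185 ± 27.1 CPM) and ITPR1 fell by 0.83 ± 0.048 (13.4 ± 2.23 against 23.5 ± 2.36 CPM). MCOLN1, the main mucolipin gene, rose by 0.13, and MCOLN2 and MCOLN3 had log2 fold changes of -0.07 and -0.02.

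The sodium-potassium pump builds the gradient that potassium channels use. Of its 14 subunit genes 5 were tested, 1 was called higher, 3 lower and 1 neither (median log2 fold change -0.12), beside the same shares of all genes. The beta subunit genes ATP1B1 and ATP1B3 fell by 0.23 ± 0.037 and 0.12 ± 0.031, and FXYD5, a regulator of the pump and of cell adhesion, rose by 0.33 ± 0.025.

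Markers of the line and of other cell types were read in the same libraries. VIM, a mesenchymal marker, stood at 6912 and 5050 CPM in the fast and parental cells, CDH1 had 11 counts in all, ESR1 0.139 CPM in each and ERBB2 59.0 and 62.4 CPM. PGR, the progesterone receptor gene that this class of line is said to lack, had 2.05 ± 0.487 CPM in the fast and 0.477 ± 0.168 CPM in the parental cells. Many of these channels are also used by neurons, glia and muscle. Summed over 4 neuron and glia markers, CPM ran from 7.71 to 9.54 in the fast and from 3.25 to 4.96 in the parental libraries; SYT1 gave most of it, rising by 1.39, while GFAP fell by 1.90 and SNAP25 and RBFOX3 reached at most 0.182 and 0.168 CPM in a library. The 3 muscle markers summed to between 1.103 and 3.10 CPM in the fast and between 0.837 and 2.75 CPM in the parental libraries, nearly all from ACTA1, with MYH7 at 2 counts. Leukocyte markers (PTPRC and CD3E among them) had at most 4 counts in a library. The part of these markers in the channel results was not tested.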

How the data were processed

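RNA from 12 libraries of MDA-MB-231 cells (fast and parental, 2 batches of 3 libraries each) was sequenced. The authors deposited raw counts of reads per gene, not normalized. The submitters' processing notes name Trimmomatic 0.32, STAR 2.3.0e, featureCounts 1.4.4 and the builds hg19 and GRCh37; the strand setting and the handling of reads with several matches are not given in the sources used here. The members and gene lists were chosen with earlier results of these data known.

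Here, TMM scaling in edgeR 4.0.16 (under R 4.3.3) was followed by the default low-count filter (minimum count 10, minimum total 15) and a robust quasi-likelihood fit on all 22668 genes left, with batch as an additive term; effects within batches came from a model with a mean per population and batch. P-values were adjusted by the Benjamini-Hochberg method over all genes tested (threshold 0.05). DESeq2 1.42.0, limma-voom 3.58.1, other scalings and filters, no batch term, a replicate block, summed libraries and leaving out each library were alternatives. Genes were named at a mean of 1 CPM or more in a population, and partner genes as up to 4 called genes per list by size of change. On simulated counts for fast against parental (22172 genes), 96% of 1.5-fold and 100% of 2-fold changes were recovered. The changed genes all had a mean of 1 CPM or more. GENCODE 29, on another build, gave gene order, exon lengths and overlaps by gene identifier only (116 of 116 members matched). Reads carried no molecular identifiers that would separate PCR copies, so intervals hold counting error alone, with each count taken as independent. Results for a few genes on these lists are not reported here.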

Additional observations from a re-analysis of the deposited data

Results flagged for a closer look

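No channel gene was called for a difference of its fast-parental effect between batches; some partner genes were, by the edgeR test of the difference itself. The log2 fold change of ATP1B1 was -0.10 in batch 1 and -0.35 in batch 2 (difference -0.24, adjusted p = 0.00186). ATP1B3 had -0.04 and -0.20 (difference -0.16, adjusted p = 0.0478), and TMEM38A had -0.23 and -0.64 (difference -0.41, adjusted p = 0.0409). The rise of ORAI3 was 0.96 in batch 1 and 1.55 in batch 2 (difference 0.59, adjusted p = 0.0197). In each of these 4 genes both batches had the same direction, with the larger effect in batch 2. Only genes from the named partners are listed here. Other partner genes were also called for such a difference, some with the larger effect in batch 1, so no pattern is read from these 4. Among all genes 5.40% were called for such a difference.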

How the results depend on the processing

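The count of channel genes called higher was 21 and of those called lower 22. It stayed within 1.5 times of these values under DESeq2-type size factors, library totals, no low-count filter, DESeq2, limma-voom, no batch term and summed libraries (18 to 22 higher, 20 to 27 lower). Over all genes these settings gave 6262 to 7290 higher and 6135 to 7952 lower, of 22668 genes tested or 38535 without the filter. A filter at a mean of 1 CPM left 30 channel genes to test, of which 11 were higher and 15 lower. Of all 16189 genes tested under that filter, 6129 were higher and 6101 lower. Leaving out each library in turn gave 17 to 21 higher, 20 to 25 lower and 0 to 1 with a difference between batches. These single calls were KCNG2 (difference -3.55 without replicate 1 of fast batch 1 and -3.83 without replicate 3 of fast batch 2), KCNJ15 (1.22 without replicate 2 of fast batch 1), KCNJ14 (-0.52 without replicate 3 of fast batch 1) and KCNJ12 (-2.15 without replicate 3 of parental batch 1), with adjusted p from 0.024 to 0.0467. Over all genes, leaving out a library gave 6965 to 7302 higher and 6851 to 7161 lower, of 23216 to 23338 tested. With the replicate number as a block, 20 channel genes were higher and 22 lower, against 7024 and 6942 of all 22668 genes tested. None of the channel genes differed between batches, and KCNAB1 was the only named gene whose call was lost (adjusted p = 0.0853). Deviations from the group mean correlated at -0.022 to 0.033 between fast and parental libraries of the same number, and at -0.057 to 0.032 between those of different number. Whether the numbers pair the libraries was not settled by these values. Of the 28 called named genes, 24 kept direction and call in every one of the 21 settings that tested them; KCNT2 and KCNK12 were not tested under the filter at 1 CPM. The other 4, KCNAB1, KCNIP2, KCNJ14 and TRPM4, lost their call under the settings given beside their results (KCNAB1 also on summed libraries, adjusted p = 0.0627), and KCND1 and KCNMB4 gained one. KCNIP3, which was not called, ran from -0.017 to 0.056 and KCNIP4 from -0.020 to 0.173 when a library was left out; KCNIP3 changed sign with library totals (-0.032), with the filter at 1 CPM (-0.005), without replicate 1 of fast batch 2 (-0.012) and without replicate 3 of parental batch 2 (-0.017); KCNIP4, also not called, did so without replicate 1 of fast batch 2 (-0.020). Partner genes called numbered 16 higher and 11 lower, with ATP1B3 not called on summed libraries (-0.109, adjusted p = 0.0737). The cause of each change was not tested, beyond the smaller number of genes or libraries tested. Of the channel genes, 61 were not tested in the main fit: 17 had no count and 44 had at most 77 counts. No call was made for these 44, which does not mean that they were equal. Some had unequal counts, such as KCNJ1 (19 in the fast and 2 in the parental libraries) and KCNK5 (0 and 30).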
